A study of Mus musculus with 9 samples.

Results

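Formative and primed transition genes were followed in embryonic stem cells of the mouse whose label is β-catenin null. The 8 genes Fgf5, Otx2, Pou3f1, Sox3, Zic2, Foxd3, Grhl2 and Sox11 were taken by symbol from a count table of 52264 rows. Each symbol had 1 row, and all 8 were among the 15366 genes with enough counts to be tested. By edgeR's quasi-likelihood test over all tested genes, Foxd3 and Grhl2 fell within 30 min of CHIR, by 17.7% and 24.0%. These calls passed in 3 and 4 of the 9 fits with 1 library omitted. Among the fits without a control or CHIR library, Foxd3 passed only without CHIR replicate 1 and Grhl2 only without CHIR replicate 2. The other passes left out a BRD0705 library. Under BRD0705 no member passed by that test, while Otx2 passed with DESeq2 or without the low-count filter and Foxd3 with a correction for GC content and length. Grhl2 was 30.6% higher with BRD0705 than with CHIR, a call kept in 5 of those 9 fits. Among the fits without an inhibitor library, it was kept only without BRD0705 replicate 3 or CHIR replicate 2. The call was lost when only the inhibitor libraries were fitted or with that correction as first run.

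Mouse embryonic stem cells resemble the naive epiblast of the preimplantation embryo. When FGF and ERK signalling is allowed to act and inhibitors of GSK3 and MEK are withdrawn, they leave that state through a formative phase towards the primed state of the postimplantation epiblast. Otx2 and Foxd3 encode transcription factors that redirect enhancer use during this exit, Grhl2 encodes a factor that opens enhancers of epithelial genes, and Fgf5 encodes an FGF ligand that is a classical mark of the postimplantation epiblast. Pou3f1 (also called Oct6), Zic2, Sox3 and Sox11 encode transcription factors whose expression continues or rises towards neural fates.

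All cells were labelled β-catenin null, and all had been expanded in medium with 3 µM CHIR-99021, 1 µM PD03 (a MEK inhibitor) and the cytokine LIF at 40 ng/ml on feeder-treated dishes. The medium was then N2B27, a serum-free base, overnight. The labels do not say whether this medium held the CHIR-99021, PD03 and LIF used for expansion. It is therefore not known whether the untreated control was free of them. The groups were an untreated control, BRD0705, an inhibitor selective for GSK3α, and CHIR, an inhibitor of both GSK3α and GSK3β, each for 30 min and with 3 libraries. The labels give no dose for the treatments, and they do not say whether the replicates were separate cultures, so the p-values measure only the spread between these libraries, which may be technical.

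The libraries held 17359422 to 20773337 counts each. Ctnnb1, the gene named in the genotype, had 5657 to 7457 counts in every library, so a count per gene does not show its loss. The 8 embryonic stem cell markers examined summed to 4122 to 4181 CPM (counts scaled to library size, in the usual unit of edgeR) in control, 4014 to 4187 with BRD0705 and 4182 to 4339 with CHIR. Markers of feeder fibroblasts, 12 of 12 detected, summed to 3345 to 3893 CPM in the controls, 4224 to 4311 with BRD0705 and 3707 to 4531 with CHIR. The log2 fold change was above 0 for 11 of the 12 under BRD0705 and 12 under CHIR, with medians of 0.22 and 0.18. Of all tested genes, 51% and 52.4% were below 0. At an unadjusted p under 0.05 by edgeR there were 7 and 6, against 15.9% and 20.5% of all tested genes. The libraries of 7 and 0 did not overlap those of control, against 20.2% and 25.1%. Of these 12, Col1a1, Col5a1 and Lox passed as higher under each inhibitor, where 0.69% of all tested genes did for BRD0705 and 2.52% for CHIR. Their edgeR adjusted p was 0.0342 to 0.0452 for BRD0705 and 0.0384 to 0.0481 for CHIR. Each was kept in 5 of the 9 fits with 1 library omitted for BRD0705, and in 5 (Col1a1), 3 (Col5a1) and 4 (Lox) of 9 for CHIR. Neural progenitor markers summed to 49.4 to 61.6 CPM over all libraries, with Neurog2 at 0, primitive streak and mesoderm markers to 12.4 to 16.8 CPM, and epithelium and trophoblast markers to 18.8 to 23.6 CPM. Olig2 alone held 42.3 to 52.6 CPM of the neural sum, and Eomes 11.0 to 15.3 CPM of the primitive streak and mesoderm sum. Of the 10 neural markers, 5 stayed under 1 CPM in every library, as did 4 of the 7 primitive streak and mesoderm markers. Endoderm markers summed to 20.6 to 20.9 CPM in the controls, 21.2 to 24.9 CPM after BRD0705 and 16.8 to 18.7 CPM after CHIR. For BRD0705 against control, 3 of the 5 tested markers had a log2 fold change above 0 and 2 below. By edgeR, 0 were at an unadjusted p under 0.05, against 15.9% of all tested genes. No single marker had BRD0705 libraries wholly above or below the controls, against 20.2% of all tested genes. All 5 tested endoderm markers had a log2 fold change below 0 for CHIR against control, as did 52.4% of all tested genes. Of the 5, 0 were past the threshold by edgeR and 2 were at an unadjusted p under 0.05, against 20.5% of all tested genes. All 5 were higher with BRD0705 than with CHIR, where 49.2% of all tested genes had a log2 fold change below 0. Sox7 and Pdgfra passed there (edgeR adjusted p = 0.0369 and 0.0299, kept in 4 and 5 of 9 fits with 1 library omitted). Of all tested genes, 4.8% passed as higher in that comparison. In these bulk samples, fewer cells of one type and less RNA per cell cannot be told apart, and the part of the feeder and endoderm markers in the results was not tested.

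The sequence before the start of Foxd3 is shown because this gene fell under CHIR, that of Sox11 because both inhibitor groups lay below control, and that of Fgf5 because its BRD0705 libraries lay above control. Each is the 250 bases before the start annotated by RefSeq on GRCm38.p6, the assembly also called mm10, written 5′ to 3′ on the strand of the gene. They are chr4:99656049-99656298 on the plus strand for Foxd3, chr12:27342719-27342968 on the minus strand for Sox11 and chr5:98253934-98254183 on the plus strand for Fgf5. Capitals mark matches on either strand to the motifs named next.
Foxd3: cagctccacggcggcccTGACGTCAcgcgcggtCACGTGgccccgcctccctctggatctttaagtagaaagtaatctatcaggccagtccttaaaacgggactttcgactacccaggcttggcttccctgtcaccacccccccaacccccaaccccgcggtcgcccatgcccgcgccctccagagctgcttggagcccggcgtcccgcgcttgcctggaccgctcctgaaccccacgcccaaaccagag
Sox11: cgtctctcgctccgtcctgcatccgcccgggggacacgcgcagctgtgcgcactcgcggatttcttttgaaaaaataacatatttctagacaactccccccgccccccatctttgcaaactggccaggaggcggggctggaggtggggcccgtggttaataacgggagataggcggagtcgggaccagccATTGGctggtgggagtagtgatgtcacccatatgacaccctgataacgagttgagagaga
Fgf5: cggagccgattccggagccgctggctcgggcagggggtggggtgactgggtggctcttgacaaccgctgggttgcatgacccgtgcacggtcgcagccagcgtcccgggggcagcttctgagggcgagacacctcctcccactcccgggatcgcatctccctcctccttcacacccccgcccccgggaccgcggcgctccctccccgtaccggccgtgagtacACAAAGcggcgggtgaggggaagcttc
In the Foxd3 window the capitals are TGACGTCA, a cyclic AMP response element, and CACGTG, an E-box, which begin 233 and 217 bases before the start. Of 32817 such windows in the RefSeq table, 1.55% held the first and 6.02% the second. These motifs, and the CCAAT box given next, were added after the windows had been read. Their shares therefore do not measure how unusual the matches are. The Sox11 window held the CCAAT box in reverse, ATTGG, 60 bases before the start, a motif present in 33.8% of the windows. The Fgf5 window held CTTTGT in reverse 27 bases before the start. That motif can be bound by TCF/LEF and by SOX factors, and 16.5% of the windows held it. The TCF/LEF variant CTTTGA (13.8% of the windows), the OTX motif GGATTA (6.25%) and the octamer ATTTGCAT (1.6%) were not matched in any of the 3 windows. None of these motifs overlaps another in the windows shown. A match is a description of letters and not a site. The GC content was 65.6% for Foxd3, 58.0% for Sox11 and 70.8% for Fgf5, against a median of 52.4%. Otx2 has 4 such windows in the table, which are not printed here. Its window 3 held GGATTA 211 bases before the start, and its window 2 held ATTGG 70 bases before the start. The other motifs named above were not matched in the windows of Otx2. The other 4 members were not looked up elsewhere.

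The members fell into an upper, a middle and a lower tier of expression. Per kilobase of transcript, the mean over the 9 libraries was 22.8 ± 2.08 CPM for Otx2, 22.2 ± 2.53 CPM for Foxd3 and 21.3 ± 1.11 CPM for Zic2 (SD, n = 9). The ranges of these 3 genes overlapped, so their order is not resolved. Sox11 followed at 4.21 ± 0.371 CPM per kilobase and Pou3f1 at 4.13 ± 0.564 CPM per kilobase (SD, n = 9). Grhl2 stood at 2.80 ± 0.434 CPM per kilobase and Sox3 at 2.48 ± 0.227 CPM per kilobase (SD, n = 9). From Sox11 to Sox3 each gene overlapped the next in range. Fgf5 was lowest at 0.745 ± 0.191 CPM per kilobase (SD, n = 9), below the range of Sox3. Lengths are those of the canonical GENCODE transcripts, which may not be the isoforms expressed.

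**Figure D1:**
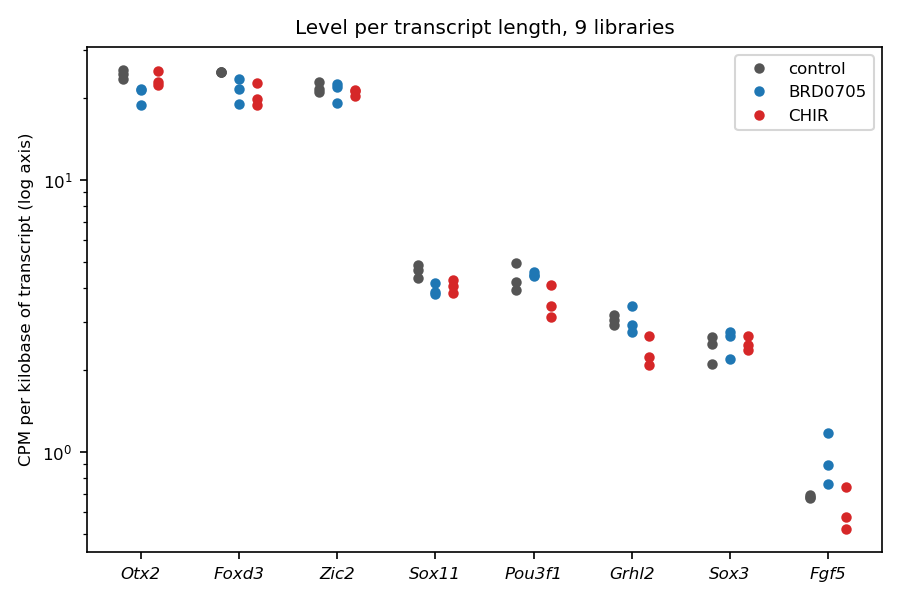
Expression of the 8 genes per kilobase of canonical transcript, on a log axis, with 1 point per library coloured by group. Otx2, Foxd3 and Zic2 lie together at the top (means of 22.8, 22.2 and 21.3), and Fgf5 lies below all others (0.745).

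The genes also differ in structure. Pou3f1, Sox3, Foxd3 and Sox11 have a canonical transcript of 1 exon, Fgf5 and Zic2 of 3, Otx2 of 5 and Grhl2 of 16. Transcript GC content was 61.8% for Zic2, 63.9% for Pou3f1, 65.1% for Foxd3 and 66.4% for Sox3, at percentile 97.8 or higher of the tested genes. It was 44.5% for Otx2, 46.5% for Sox11, 49.3% for Fgf5 and 50.2% for Grhl2, against a median of 50.6%. This matters here because libraries differed in how their counts followed GC content. Over genes, Spearman's rho of GC content with the deviation of a library from the mean of all libraries was -0.292 to 0.193 in control, 0.0541 to 0.260 with BRD0705 and -0.116 to -0.0542 with CHIR. Fits with that dependence and the one on length taken out are therefore given where they bear on a call. The correction was run in 2 forms, first with the mean of each library taken out along with the trend, and then, chosen after the values of the first were seen, with the trend centred so that the scaling of the libraries stayed as it was.

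On GRCm38.p6, Foxd3 lies on chromosome 4 from 99656299 to 99658671, Grhl2 on chromosome 15 from 37232821 to 37363569, Otx2 on chromosome 14 from 48656781 to 48667644 and Sox11 on chromosome 12 from 27334268 to 27342718. Pou3f1 lies on chromosome 4 from 124657646 to 124660655, Zic2 on chromosome 14 from 122475384 to 122480328, Sox3 on chromosome X from 60891366 to 60893430 and Fgf5 on chromosome 5 from 98254184 to 98277033. Use of strand in the counting is not given in the sources used here, so reads of antisense genes could be shared. The antisense row Gm12688 at Foxd3 held 2.96 to 4.24 CPM, and 2610035F20Rik at Zic2 held 1.16 to 2.76 CPM. The rows overlapping Otx2, Pou3f1, Sox3 and Grhl2 that are in the count table held at most 0.641 CPM.

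The first comparison, CHIR minus control, asks how the members stood after 30 min of an inhibitor of both GSK3 enzymes. Of the 8 members, 2 fell (Foxd3 and Grhl2) and 0 rose, in a comparison where 3.78% of all tested genes fell, 2.52% rose and 6.3% passed in either direction. At an unadjusted p under 0.05 by edgeR there were 4 members, all lower, where 20.5% of all tested genes were past that level and 11.5% were lower. The log2 fold change was below 0 for 7 of the 8, with a median of -0.17, against -0.0091 over all tested genes, of which 52.4% were below 0. The libraries of 3 members, all lower with CHIR, did not overlap those of control, where 25.1% of all tested genes did not and 14.1% lay wholly lower.

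Foxd3 stood at 57.7, 57.8 and 57.7 CPM in the control libraries and at 52.8, 43.6 and 46.0 CPM after CHIR. Every CHIR library lay below every control library. The SD was 0.0894 CPM in the controls and 4.76 CPM after CHIR. The controls held 1170 to 1194 counts each, and sampling noise alone would usually spread such libraries further. Their closeness is therefore not read as a trait of the group. The fitted log2 change was -0.28 ± 0.08 (SE; adjusted p by edgeR = 0.0371), on 775 to 1194 counts per library. With the GC and length correction it was -0.27 (edgeR adjusted p = 0.0234), and -0.31 in the centred form (edgeR adjusted p = 0.0104). The call was lost when a library was left out: control replicate 1, 2 or 3 (edgeR adjusted p = 0.0846, 0.109 and 0.109), BRD0705 replicate 1 (0.0569) or CHIR replicate 2 or 3 (0.192 and 0.123). The fold change stayed between -0.36 and -0.22 in the 9 fits with 1 library omitted.

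Grhl2 stood at 15.7, 15.1 and 14.5 CPM in the controls and at 11.0, 13.2 and 10.3 CPM after CHIR. The groups did not overlap. The fitted log2 change was -0.40 ± 0.10 (SE; adjusted p by edgeR = 0.0297), on 188 to 319 counts per library. It passed in 4 of the 9 fits with 1 library omitted, with fold changes of -0.50 to -0.32. Without control replicate 1, 2 or 3 the edgeR adjusted p was 0.0981, 0.0960 and 0.0669, and without CHIR replicate 1 or 3 it was 0.104 and 0.125.

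Sox11 stood at 36.2, 40.3 and 38.9 CPM in the controls and at 35.6, 31.8 and 33.9 CPM after CHIR. It was the other member whose CHIR libraries all lay below the controls, but the difference did not pass (log2 fold change -0.19 ± 0.07 SE, edgeR adjusted p = 0.107). Pou3f1 stood at 15.1, 19.0 and 16.2 CPM in the controls and at 12.1, 13.3 and 15.7 CPM after CHIR. CHIR replicate 3 lay above control replicate 1, and the difference did not pass (log2 fold change -0.29 ± 0.10 SE, edgeR adjusted p = 0.102). Single libraries moved the Pou3f1 value. It was -0.19 without control replicate 2 (edgeR adjusted p = 0.405), -0.20 without CHIR replicate 1 (0.345) and -0.40 without CHIR replicate 3 (0.0419), the 1 of 9 such fits in which it passed.

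Otx2, Zic2, Sox3 and Fgf5 did not pass under CHIR, and their groups overlapped. Otx2 stood at 77.1, 83.0 and 80.0 CPM in the controls and at 75.1, 73.3 and 82.0 CPM after CHIR. Its log2 difference lay between -0.20 and 0.08 (95% interval), so a change of the size seen for Grhl2 is outside the interval. Zic2 stood at 72.9, 79.0 and 74.6 CPM in the controls and at 73.2, 70.3 and 73.9 CPM after CHIR (95% interval of the log2 difference -0.19 to 0.08). For Sox3 the interval was -0.25 to 0.35, on 85 to 120 counts per library. For Fgf5 it was -0.64 to 0.32, on 26 to 68 counts, so differences of the size seen for Foxd3 were not resolvable for Fgf5.

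**Figure D2:**
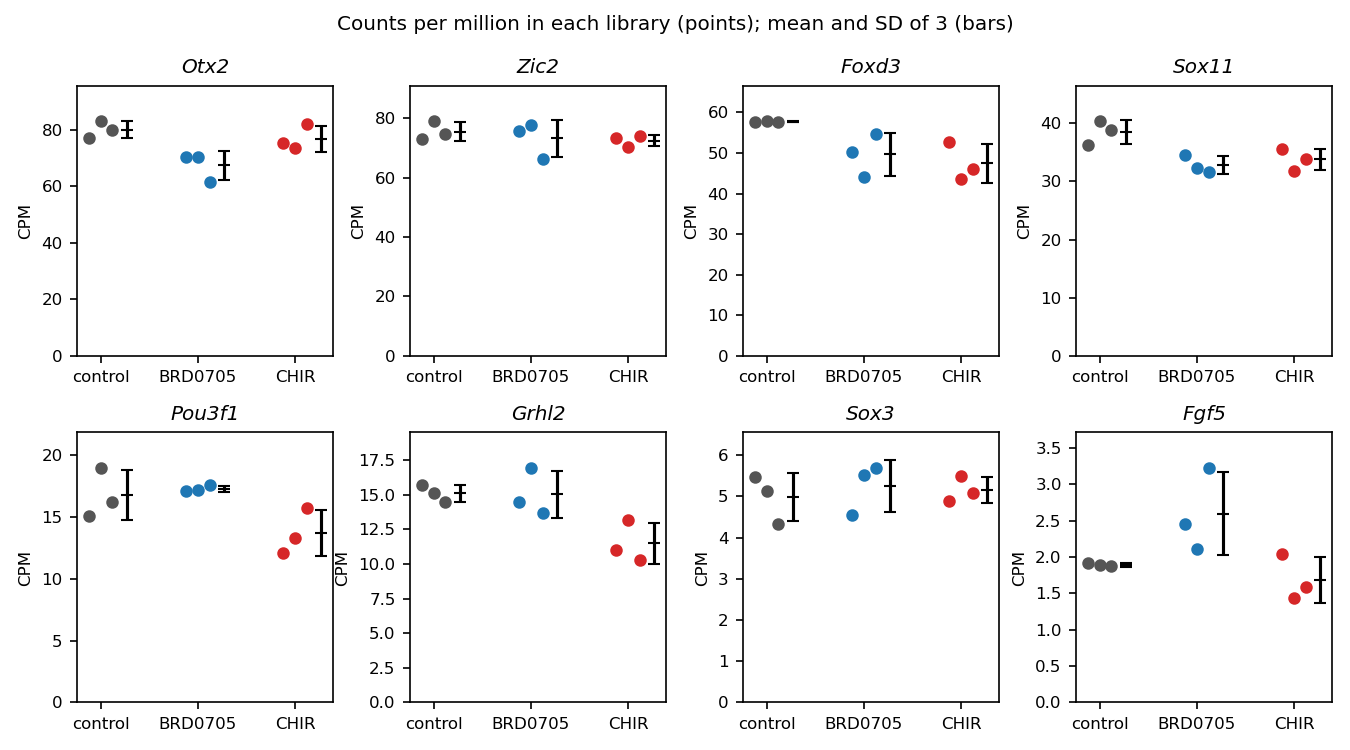
CPM of the 8 genes in each library (points) with the mean and SD of the 3 libraries of a group (bars), on axes that start at 0. For Foxd3 and Grhl2 the 3 CHIR points lie below the 3 control points, and for Otx2 the 3 BRD0705 points lie below the other groups.

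The second comparison, BRD0705 minus control, asks the same of the inhibitor selective for GSK3α. By edgeR, 0 of the 8 members passed, where 1.22% of all tested genes did, 0.534% lower and 0.69% higher. DESeq2 called 1, Otx2, and limma on the deposited normalized values called 0. At an unadjusted p under 0.05 by edgeR there were 4 members, where 15.9% of all tested genes were past that level and 8.08% were lower: Otx2, Sox11 and Foxd3 below control and Fgf5 above it. The libraries of these 4 genes did not overlap those of control, 3 lower and 1 higher, where 20.2% of all tested genes did not, 10.4% lower and 9.83% higher. The log2 fold change was below 0 for 5 of the 8, as for 51% of all tested genes. Its median over the 8 was -0.03, against -0.0038 over all tested genes.

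Otx2 stood at 70.3, 70.4 and 61.5 CPM after BRD0705, below the lowest control library at 77.1 CPM. The log2 fold change was -0.25 ± 0.07 (SE; adjusted p by edgeR = 0.0666). DESeq2 gave -0.24 (adjusted p = 0.0209), and the GC and length correction gave -0.19 in both forms (edgeR adjusted p = 0.190, and 0.176 when centred). Sox11 stood at 34.6, 32.3 and 31.6 CPM, below each control library, with a log2 fold change of -0.23 ± 0.07 (SE; adjusted p by edgeR = 0.0970). Under each inhibitor the libraries of Sox11 lay below the controls without passing. The same 3 control libraries enter both comparisons.

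Foxd3 stood at 50.3, 44.1 and 54.6 CPM after BRD0705, again below each control library. The log2 fold change was -0.21 ± 0.08 (SE; adjusted p by edgeR = 0.177). With the GC and length correction it was -0.32 in both forms (edgeR adjusted p = 0.0421, and 0.0356 when centred), past the threshold. Without BRD0705 replicate 2 the uncorrected value was -0.13 (edgeR adjusted p = 0.490), and Foxd3 passed in 0 of the 9 fits with 1 library omitted. GC content and length were corrected together, so their parts were not separated.

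Fgf5 stood at 2.46, 2.11 and 3.23 CPM after BRD0705 against 1.92, 1.89 and 1.87 CPM in the controls. The controls held 38 to 39 counts each, and sampling noise alone would usually spread such libraries further. No BRD0705 library reached down to a control library, but the difference did not pass (log2 fold change 0.46 ± 0.21 SE, edgeR adjusted p = 0.295). Without BRD0705 replicate 3 it was 0.28 (edgeR adjusted p = 0.586), the lowest of the 9 fits with 1 library omitted, which reached up to 0.60. BRD0705 replicate 3 was the highest of the 9 libraries for Fgf5 and the lowest for Otx2. Grhl2 stood at 14.4, 17.0 and 13.7 CPM after BRD0705 and Pou3f1 at 17.1, 17.2 and 17.6 CPM, both within or overlapping their controls. The 95% interval of the log2 difference was -0.23 to 0.20 for Grhl2 and -0.17 to 0.25 for Pou3f1. Sox3 and Zic2 also overlapped their controls, with intervals of -0.22 to 0.38 and -0.18 to 0.09.

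The inhibitors were set against each other directly, in 1 pair of compounds at doses the labels do not give. Of the 8 members 1 passed, Grhl2, where 7.77% of all tested genes did, 4.8% higher and 2.97% lower with BRD0705. The log2 difference was below 0 for 2 of the 8, where 49.2% of all tested genes were. At an unadjusted p under 0.05 by edgeR there were 4 members, 1 of them lower, where 22.5% of all tested genes were past that level and 10.5% were lower. Its BRD0705 libraries, from 13.7 CPM, lay above its CHIR libraries, up to 13.2 CPM, by 0.38 ± 0.11 on the log2 scale (SE; adjusted p by edgeR = 0.0327). It was past the threshold in 5 of the 9 fits with 1 library omitted. Without BRD0705 replicate 1 or 2 the edgeR adjusted p was 0.0734 and 0.152, and without CHIR replicate 1 or 3 it was 0.110 and 0.121. With only the libraries of the 2 inhibitors in the fit it was 0.0515. With the GC and length correction as first run the difference was 0.31 and did not pass (edgeR adjusted p = 0.0618), while in the centred form chosen afterwards it was 0.35 and passed (edgeR adjusted p = 0.0457).

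Pou3f1 was higher with BRD0705 than with CHIR in every library, by 0.34 ± 0.10 on the log2 scale, and stood at the edge of the threshold (SE; adjusted p by edgeR = 0.0532). It passed without control replicate 1 (edgeR adjusted p = 0.0493), control replicate 2 (0.0469) or CHIR replicate 3 (0.0207). With the GC and length correction the difference was 0.20 (edgeR adjusted p = 0.274), and 0.24 in the centred form (edgeR adjusted p = 0.207). Fgf5 differed by 0.63 ± 0.22 (SE; adjusted p by edgeR = 0.0905) and Otx2 by -0.19 ± 0.07 (SE; adjusted p by edgeR = 0.0877), BRD0705 minus CHIR. Neither passed, and without BRD0705 replicate 3 they stood at 0.43 and -0.12 (edgeR adjusted p = 0.297 and 0.284). Grhl2, Pou3f1, Fgf5 and Otx2 were the 4 members whose inhibitor groups did not overlap, 3 higher and 1 lower with BRD0705, where 26.7% of all tested genes did not, 13.7% higher and 12.9% lower.

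Foxd3, Sox11, Zic2 and Sox3 overlapped between the inhibitors. The 95% interval of the log2 difference was -0.10 to 0.23 for Foxd3, -0.19 to 0.10 for Sox11, -0.12 to 0.15 for Zic2 and -0.27 to 0.33 for Sox3. The fall of Foxd3 under CHIR is thus not shown to differ from its value under BRD0705.

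**Figure D3:**
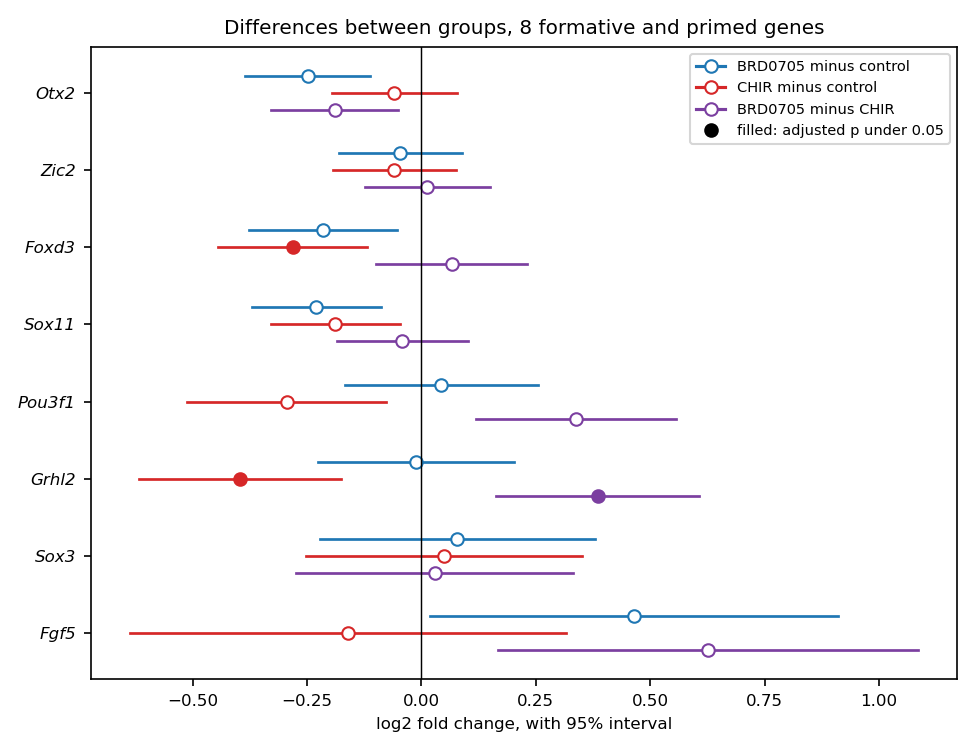
Log2 fold changes of the 8 genes (points) with 95% intervals (lines) for BRD0705 minus control, CHIR minus control and BRD0705 minus CHIR, from 1 fit of all 9 libraries. Filled points, Foxd3 and Grhl2 for CHIR minus control and Grhl2 for BRD0705 minus CHIR, are those with an adjusted p under 0.05.

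**Figure D4:**
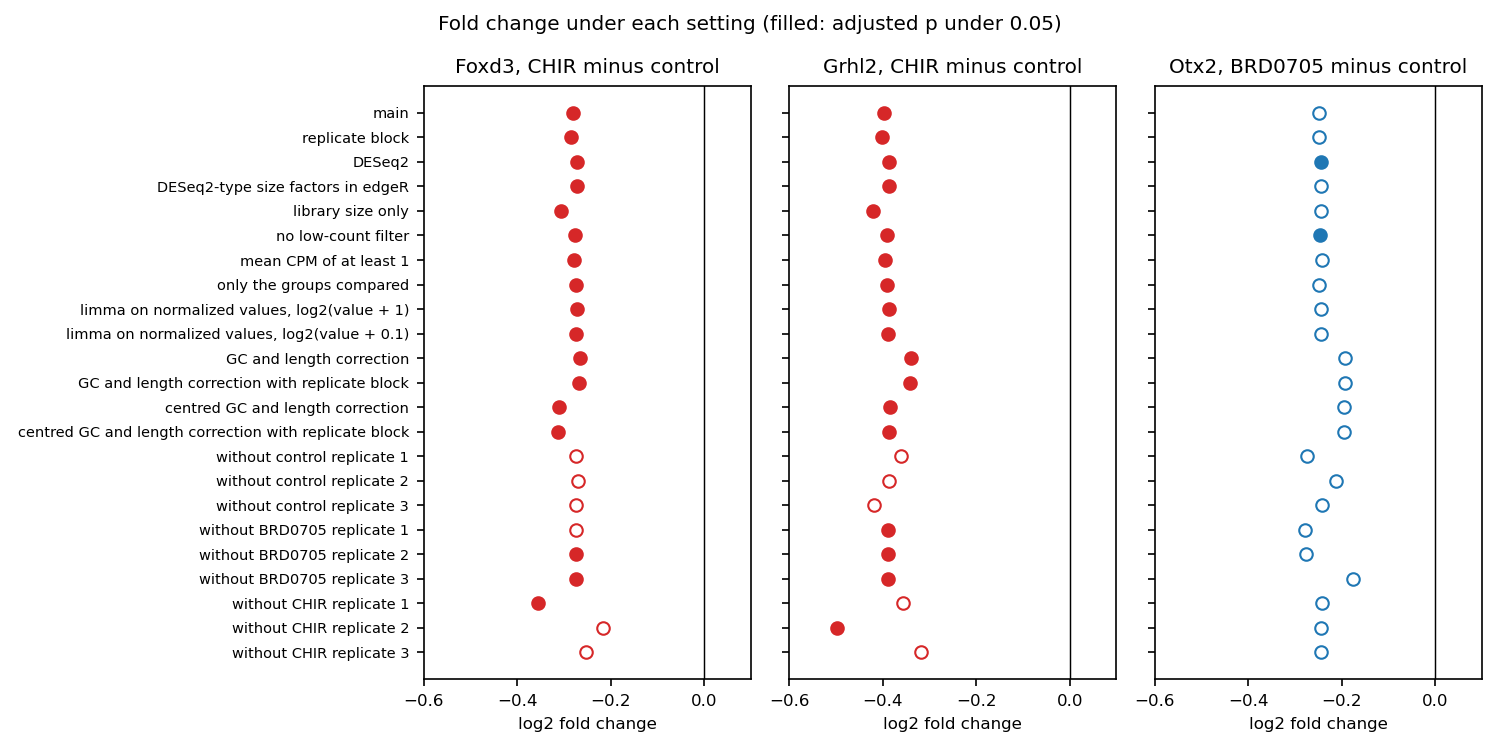
Log2 fold changes of Foxd3 and Grhl2 for CHIR minus control and of Otx2 for BRD0705 minus control, under the main settings and each alternative (rows). All points lie below 0, and open points, those not past an adjusted p of 0.05, include each fit that left out a control library.

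Across the 9 libraries the members did not follow 1 shared pattern. Pearson's r of log2 CPM over the 28 pairs of members ranged from -0.76 (Otx2 and Fgf5) to 0.73 (Foxd3 and Sox11), with a median of 0.17. The points share libraries, groups and depth, and the values are a description. Among 13629 other genes with a mean of at least 1 CPM, the profiles closest to Foxd3 were those of Uqcc3 (r = 0.97) and Ttk (r = 0.96). Those closest to Grhl2 were Slc35e4 (r = 0.97) and 9630028I04Rik (r = 0.96). For Otx2 they were Lactb2 (r = 0.96) and Slc26a6 (r = 0.94), and for Sox11 Platr10 (r = 0.95) and Zfp729b (r = 0.94). For Fgf5 they were M1ap (r = 0.97) and Samd10 (r = 0.95), and for Pou3f1 Baz2b (r = 0.97) and Shroom1 (r = 0.95). For Zic2 they were Tmem37 (r = 0.94) and Gm45752 (r = 0.93), and for Sox3 Lekr1 (r = 0.90) and Gpx4 (r = 0.87). These are the 2 highest values of r among 13629 genes for each member, on 9 libraries. Their size therefore does not measure shared regulation.

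Family relatives of the members were examined next, 11 of 18 with enough counts to be tested. Under CHIR, 3 of the 11 fell and 0 rose, against 3.78% lower among all tested genes. At an unadjusted p under 0.05 there were 8 of the 11, 6 of them lower, against 20.5% of all tested genes. Under BRD0705, 0 of the 11 passed by edgeR, and 2 were at an unadjusted p under 0.05, near the 15.9% of all tested genes. Sox4 and Sox12 encode the other SOXC factors beside Sox11, and both fell. Sox4 stood at 47.5, 50.8 and 50.0 CPM in the controls, 47.7, 47.0 and 46.5 CPM after BRD0705 and 36.2, 36.6 and 34.8 CPM after CHIR. Its log2 fold change for CHIR was -0.46 ± 0.06 (SE; adjusted p by edgeR = 0.000115). Sox12 stood at 74.1, 72.0 and 71.1 CPM in the controls, 83.3, 69.6 and 70.6 CPM after BRD0705 and 53.8, 57.0 and 59.6 CPM after CHIR. For Sox12 the log2 change was -0.35 ± 0.07 (SE; adjusted p by edgeR = 0.00516). Both passed in all 9 fits with 1 library omitted, and both were also higher with BRD0705 than with CHIR, by 0.39 each (edgeR adjusted p = 0.000443 for Sox4 and 0.00199 for Sox12). Sox11, by contrast, had similar levels under both inhibitors, at 32.8 ± 1.57 and 33.8 ± 1.89 CPM (SD, n = 3).

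Sox1, a SOXB1 factor gene of early neural cells that is also in the neural marker list and a relative of Sox3, fell under CHIR. It stood at 3.80, 4.12 and 4.88 CPM in the controls, 4.07, 3.13 and 4.70 CPM after BRD0705 and 2.84, 2.09 and 2.57 CPM after CHIR. The change on the log2 scale was -0.76 ± 0.19 (SE; adjusted p by edgeR = 0.0203). It did not pass without control replicate 2 or 3 or CHIR replicate 2 (edgeR adjusted p = 0.0561, 0.105 and 0.101). Sox3 stood at 5.47, 5.13 and 4.34 CPM in the controls and 4.88, 5.51 and 5.08 CPM after CHIR, without a difference past its spread. Sox2, the SOXB1 factor of the pluripotency core, had log2 fold changes of -0.21 under BRD0705 and -0.06 under CHIR (edgeR adjusted p = 0.0601 and 0.553). Between the inhibitors, 4 of the 11 relatives passed as higher with BRD0705, where 4.8% of all tested genes did. They were Sox4, Sox12, Sox1 (0.67 ± 0.19 SE on the log2 scale, edgeR adjusted p = 0.0383, kept in 4 of 9 fits with 1 library left out) and Otx1. Otx1 was higher with BRD0705 than with CHIR by 1.00 ± 0.30 on the log2 scale (SE; adjusted p by edgeR = 0.0465), on 14 to 39 counts, and passed in 1 of the 9 fits with 1 library omitted.

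**Figure D5:**
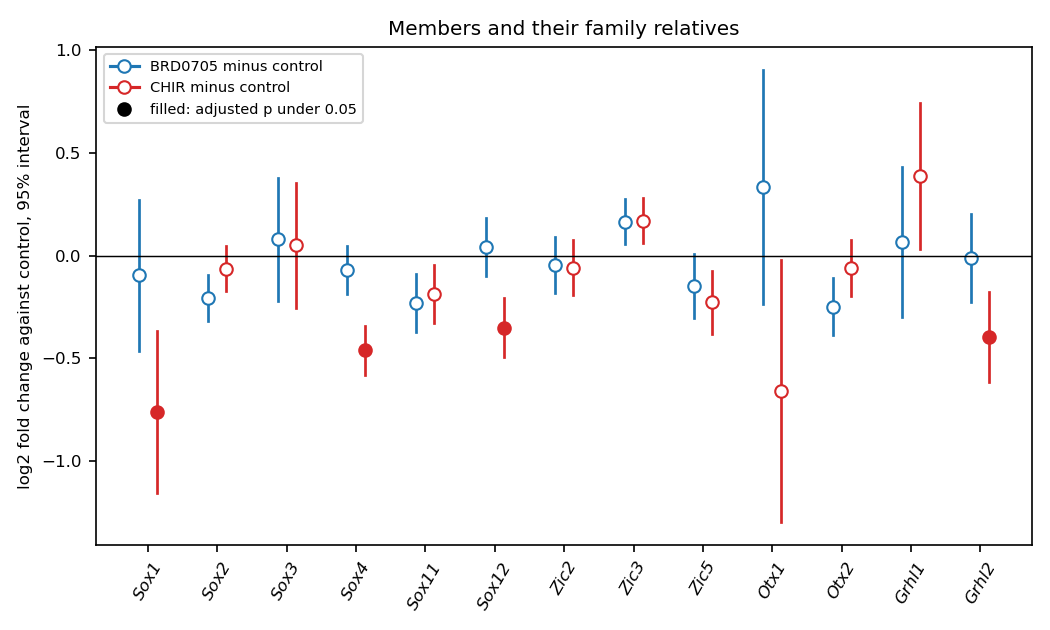
Log2 fold changes against control (points) with 95% intervals (lines) under BRD0705 and CHIR, for members and relatives of the SOX, ZIC, OTX and GRHL families. Zic1 and Grhl3 were tested but are not shown. Filled points are those with an adjusted p under 0.05: Sox1, Sox4, Sox12 and Grhl2, all under CHIR and all below 0.

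Most other genes of the formative and primed programme did not pass. Of 22 tested, 2 fell under CHIR, Dnmt3a and Nodal, and 0 rose, against 3.78% lower among all tested genes. At an unadjusted p under 0.05 there were 5 of the 22, against 20.5% of all tested genes. Dnmt3a encodes a de novo DNA methyltransferase and was at 81.7 ± 4.01 CPM in the controls and 70.1 ± 2.49 CPM after CHIR (SD, n = 3; edgeR adjusted p = 0.0286). Nodal encodes a TGFβ family ligand of the epiblast and was at 61.8 ± 3.43 CPM in the controls, 53.1 ± 3.06 CPM after BRD0705 and 52.5 ± 2.30 CPM after CHIR (SD, n = 3; edgeR adjusted p = 0.0978 and 0.0344). Dnmt3a was called in 4 and Nodal in 2 of the 9 fits with 1 library omitted, with edgeR adjusted p up to 0.140 and 0.144. None of the fits without a given control library or CHIR library kept Nodal, and Dnmt3a was kept without control replicate 1 but not without control replicate 2 or 3 or any CHIR library.

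Under BRD0705, 0 of those 22 passed by edgeR, with 6 at an unadjusted p under 0.05, against 15.9% of all tested genes. The median log2 fold change of the 22 was 0.02 under each inhibitor. Dnmt3b, Lef1, Utf1, Etv4 and Etv5, abundant genes of the list, did not pass in any of the 3 comparisons. Tdgf1, which encodes the Nodal co-receptor Cripto, was at 403 ± 32.2 CPM after BRD0705 and 465 ± 8.58 CPM after CHIR (SD, n = 3; edgeR adjusted p = 0.0321 between the inhibitors). That call was kept in 4 of the 9 fits with 1 library omitted, with edgeR adjusted p up to 0.114.

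FGF ligands and receptors, through which Fgf5 and the exit from naive pluripotency act, gave no call. Of 9 tested, 0 passed in any comparison by edgeR, with 2, 2 and 4 at an unadjusted p under 0.05 for BRD0705 against control, CHIR against control and BRD0705 against CHIR, where 15.9%, 20.5% and 22.5% of all tested genes were. Fgf4, the main FGF ligand of naive cells, had log2 fold changes of -0.14 ± 0.06 and -0.16 ± 0.06 (SE; adjusted p by edgeR = 0.226 and 0.0984). Fgfr1, its main receptor gene here at 151 to 163 CPM per group, had log2 fold changes of 0.10 and -0.01.

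Of 12 naive genes, 2 rose under CHIR and 0 fell, against 2.52% higher among all tested genes, and 5 were at an unadjusted p under 0.05, against 20.5%. Under BRD0705, 0 passed by edgeR, and 2 of the 12 were at an unadjusted p under 0.05, near the 15.9% of all tested genes. Esrrb, an orphan nuclear receptor gene of naive cells, was at 886 ± 16.3 CPM in the controls and 1034 ± 13.3 CPM after CHIR (SD, n = 3; edgeR adjusted p = 0.00734), and passed in all 9 fits with 1 library omitted. Klf4 was at 165 ± 4.38 CPM in the controls, 148 ± 5.02 CPM after BRD0705 and 188 ± 9.33 CPM after CHIR (SD, n = 3). The rise of Klf4 under CHIR (edgeR adjusted p = 0.0369) was lost without control replicate 1, 2 or 3 or CHIR replicate 2 or 3, at edgeR adjusted p of 0.0624 to 0.129. Of the 12, Esrrb and Klf4 passed as lower with BRD0705 than with CHIR and 0 as higher, where 2.97% of all tested genes passed as lower. The Esrrb log2 difference, -0.15 (edgeR adjusted p = 0.0474), was kept in 1 of those 9 fits. The Klf4 difference, -0.35 ± 0.05 (SE; adjusted p by edgeR = 0.00066), was kept in all 9. Of the core genes Pou5f1, Sox2, Nanog and Sall4, 0 passed in any comparison by edgeR, with 1 of the 4 at an unadjusted p under 0.05 in each. Among all tested genes, 15.9% were at that level for BRD0705 against control, 20.5% for CHIR against control and 22.5% between the inhibitors.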

How the data were processed

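RNA sequencing libraries of 3 groups with 3 replicates each were compared. The authors deposited raw counts per gene symbol as whole numbers. The submitters' processing notes name RSEM, DESeq2 and the build mm10 without roles; if RSEM made the counts they are rounded estimates. The aligner, annotation and use of strand are not given in the sources used here. The labels name polyA RNA and a ribosomal depletion kit, and which applies was not resolved. The authors also deposited normalized values, a signal equal to the raw count divided by 1 factor per library, which matched median-of-ratios size factors.

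The tests used edgeR 4.0.16 under R 4.3.3: TMM scaling, filterByExpr with a minimum count of 10, quasi-likelihood F tests with all 9 libraries in 1 fit of 3 group means (6 residual degrees of freedom), 2-sided, with a Benjamini-Hochberg adjusted p under 0.05 over 15366 genes. Standard errors and 95% intervals come from the F statistic. CPM are counts over the TMM effective library size, with a prior count of 2 on the log2 scale. Replicates of a group differed by more than sampling noise (chi-square per degree of freedom 3.39 to 8.01 over 9 pairs). Transcript length and GC content came from GENCODE vM39 (98% of tested genes), and coordinates and promoter windows from RefSeq on GRCm38.p6. Promoters of Pou3f1, Sox3, Zic2 and Grhl2 were not analysed here. Fits were also run on simulated counts drawn from the fitted spread, with changes larger than those of the members called. No trend with GC content was simulated. That run does not bear on the member calls or on the GC and length correction.

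Alternatives were the replicate block, DESeq2 1.42.0, median-of-ratios factors, library size only, 2 other filters, only the groups compared, limma 3.58.1 on log2(normalized value + 1) and + 0.1, a GC and length correction (splines with 5 degrees of freedom), that correction with the block, and leaving out each library. As first run, the correction also took out the mean of each library and so rescaled the libraries; a centred form without this, alone and with the block, was added after those values were seen, and it changes the call of Grhl2 between the inhibitors. Leaving out a library of the group not compared changes a comparison only through the shared spread, scaling and filter. The members, the lists and the tests were chosen with earlier results of these data known. The CRE, E-box and CCAAT motifs were added, and a GC box motif dropped, after the windows had been read. All 8 members are named, with list genes past the threshold and a few abundant others, and the 2 genes most alike to each member.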

Additional observations from a re-analysis of the deposited data

How the results depend on the processing

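Foxd3 and Grhl2 stayed below control under CHIR in all 22 alternatives, and past the threshold in 16 and 17 of them. Grhl2 between the inhibitors passed in 16 of 22. Leaving out 1 library gave 0 to 2 members past the threshold for CHIR against control, 0 to 2 for BRD0705 against CHIR, and 0 for BRD0705 against control. It gave 514 to 1070, 616 to 1313 and 21 to 305 of all genes, against 968, 1194 and 188.

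The GC and length correction was first run with the mean of each library in the trend it removed. Its centred form was chosen after those values were seen, and the 2 forms differ. Genes past the threshold for CHIR against control were 1541 (1009 higher, 532 lower) as first run and 1517 with the replicate block, but 1169 (486 higher, 683 lower) when centred, against 387 higher and 581 lower without correction. For BRD0705 against CHIR they were 1467 (480 higher, 987 lower) as first run and 1101 (630 higher, 471 lower) when centred, against 738 and 456. Members past the threshold there were 0 as first run (Grhl2 at edgeR adjusted p = 0.0618), 1 with the block (0.0416) and 1 when centred (0.0457). For BRD0705 against control, 1 member (Foxd3) passed in each form, of 116 genes, 103 with the block, 114 when centred and 115 when centred with the block.

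For BRD0705 against control, 1 member (Otx2) also passed of 489 genes with DESeq2 and of 609 genes with no low-count filter. For BRD0705 against CHIR, 2 members (Pou3f1 and Grhl2) passed with library size only, with no low-count filter and with a mean CPM of at least 1, and 0 with only the groups compared. Library size only gave 252 higher and 702 lower for CHIR against control and 912 and 239 for BRD0705 against CHIR; DESeq2 gave 469 and 459 for CHIR against control. No scaling moved the median of all genes by over 0.1 on the log2 scale.

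Samples of equal replicate number did not deviate together over all tested genes (mean correlation -0.00119 over 9 pairs, range -0.0897 to 0.0802). The numbers were therefore read as names of samples. With 3 libraries per group, this check cannot exclude a batch shared by number in part of the genes. With the replicate block, 222, 973 and 1177 genes passed for BRD0705 against control, CHIR against control and BRD0705 against CHIR, with 0, 2 and 2 members, Pou3f1 joining Grhl2 in the last (edgeR adjusted p = 0.0451).

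Signs changed only for values that passed in no fit. With the correction as first run, with the block, centred, and centred with the block, Pou3f1 was at -0.077, -0.074, -0.080 and -0.076 and Sox3 at -0.026, -0.027, -0.029 and -0.030 for BRD0705 minus control. For BRD0705 minus CHIR, Sox3 was at -0.083, -0.084, -0.041 and -0.042, Zic2 at -0.11, -0.12, -0.072 and -0.074 and Foxd3 at -0.054, -0.056, -0.012 and -0.014. Leaving out 1 library gave -0.025 to 0.15 for Pou3f1, -0.0036 to 0.17 for Sox3, -0.10 to 0.063 for Grhl2 and -0.084 to 0.032 for Zic2 in BRD0705 minus control. It gave -0.034 to 0.13 for Sox3 in CHIR minus control, and -0.035 to 0.12 for Sox3, -0.032 to 0.084 for Zic2 and -0.0067 to 0.15 for Foxd3 in BRD0705 minus CHIR. The causes were not tested. Depth limits Fgf5, with 26 to 68 counts per library.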
